A study of Mus musculus with 6 samples.

Results

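The 10 genes Vcam1, Cd163, Spic, Cd5l, Lyz2, Cd68, Csf1r, Mrc1, Axl and Mertk were listed as genes of red pulp and erythroblastic island macrophages. Other cells also make some of them, as stated below for Vcam1 and Lyz2. The 10 were picked by symbol from the table of read counts. All 10 of 10 were found among its 35178 gene symbols, and all 10 passed the filter on low counts. The libraries came from Ter119-positive cells of the spleen, Ter119 being a surface marker of erythroid cells, so these genes were read in a fraction sorted for another cell type. All mice had sickle cell disease, were 2 to 3 months old and were of a mixed background written as B6;129P2 in the labels. There were 3 libraries wild type for the transcription factor Nrf2 (WT) and 3 Nrf2 knockout libraries (KO), and both groups therefore share the sickle cell genotype. The labels name neither the sickle cell model nor the deleted part of the Nrf2 gene, and nothing in them ties a library to a separate mouse, so the p-values rest on a spread among libraries that may be technical.

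Red pulp macrophages clear worn and damaged red cells and recycle their iron, and a macrophage at the centre of an erythroblastic island holds and feeds the erythroblasts around it. The transcription factor Spic is required for the red pulp macrophage in mice, and heme induces it by relieving repression by Bach1. Vcam1 holds erythroblasts through their α4β1 integrin, Cd163 takes up hemoglobin bound to haptoglobin, and Axl and Mertk are receptor kinases of the TAM family through which macrophages recognise dying cells. Csf1r is the receptor for the growth factor that keeps macrophages alive. Cd5l is a protein secreted by macrophages, Lyz2 is lysozyme, Cd68 is a lysosomal glycoprotein and Mrc1 is the mannose receptor.

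The stretches around the gene starts were read for letters bound by factors of myeloid cells and by Nrf2, because the members share a cell type. RefSeq promoters of 300 bases (250 before and 50 after the start, build GRCm38.p6) matched 8 of the 10 genes by symbol; Vcam1 and Csf1r had no entry. Both strands were searched for GAGGAAG, a form of the site of the myeloid factor PU.1, for TGACNNNGC, the core of the antioxidant response element bound by Nrf2, for TGACTCA, the AP-1 site, and for CACGTG, an E-box. TGACTCA and TGACNNNGC can overlap each other. The PU.1 letters stood in 3 of the 8 promoters (Cd5l, Mrc1 and Axl) and in 13.6% of all 32851 promoters of the same length. The Nrf2 letters stood in 1 of the 8 (Lyz2, bases 11 to 19 after the start) and in 12.4% of all. The AP-1 letters stood in 1 of the 8 (Cd68, at 2 places) and in 5.20% of all, and CACGTG in 0 of the 8 and 7.15% of all. These are matches of letters and not sites shown to be bound. The 4 promoters below hold the PU.1 or the Nrf2 letters, which are in capitals; each runs 5′ to 3′ on the gene's own strand.
Cd5l, chr3:87357631-87357930, plus strand: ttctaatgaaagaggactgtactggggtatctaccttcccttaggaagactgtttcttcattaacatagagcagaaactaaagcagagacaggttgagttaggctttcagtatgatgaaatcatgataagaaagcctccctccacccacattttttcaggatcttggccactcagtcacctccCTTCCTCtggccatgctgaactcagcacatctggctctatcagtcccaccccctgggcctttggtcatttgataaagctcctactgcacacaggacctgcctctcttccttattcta
Mrc1, chr2:14229164-14229463, plus strand: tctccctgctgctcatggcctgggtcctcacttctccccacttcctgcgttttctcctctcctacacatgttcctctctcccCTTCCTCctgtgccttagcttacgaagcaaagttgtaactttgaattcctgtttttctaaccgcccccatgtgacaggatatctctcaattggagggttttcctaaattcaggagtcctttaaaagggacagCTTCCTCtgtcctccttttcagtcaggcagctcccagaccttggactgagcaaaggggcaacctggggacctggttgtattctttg
Axl, chr7:25788684-25788983, minus strand: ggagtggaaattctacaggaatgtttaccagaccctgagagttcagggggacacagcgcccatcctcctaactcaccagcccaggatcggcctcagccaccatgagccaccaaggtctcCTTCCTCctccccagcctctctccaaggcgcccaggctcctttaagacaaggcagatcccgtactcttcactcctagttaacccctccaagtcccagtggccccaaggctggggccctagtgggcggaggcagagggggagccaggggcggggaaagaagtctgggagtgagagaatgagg
Lyz2, chr10:117282223-117282522, minus strand: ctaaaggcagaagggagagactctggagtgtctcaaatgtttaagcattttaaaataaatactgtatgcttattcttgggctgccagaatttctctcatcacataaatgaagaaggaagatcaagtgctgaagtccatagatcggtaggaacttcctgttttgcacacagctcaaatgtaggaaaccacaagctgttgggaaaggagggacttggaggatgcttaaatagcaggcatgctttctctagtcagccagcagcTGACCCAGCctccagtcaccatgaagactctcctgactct
The PU.1 letters appear as CTTCCTC, the other strand of GAGGAAG, once in Cd5l and in Axl and at 2 places in Mrc1. Of the 3 genes that share them, Cd5l was highest in KO replicate 1, while Mrc1 and Axl were lowest there and highest in KO replicate 3. Whether these letters bear on the levels was not tested.

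The libraries held 16420054 to 21790983 counted reads. Nfe2l2, which encodes Nrf2, was read in all 6, at 98.7, 71.0 and 75.2 CPM (reads per 1000000 of a library size scaled by TMM) in WT replicates 1, 2 and 3 and at 63.4, 76.8 and 68.6 CPM in KO, with an adjusted p of 0.556 by edgeR; reads outside a deleted part check nothing about the genotype. The groups also differ in sex-linked reads: genes of chromosome Y made up 212 CPM on library totals in KO replicate 1 and 272 in KO replicate 2, but only 6.91 in KO replicate 3 and 0.289 to 1.20 in the WT libraries. KO replicate 3 alone is therefore set against WT where stated. Genotype and this difference cannot be told apart in KO replicates 1 and 2. Erythroid markers were far more abundant in every library, with a summed level of 24939 to 38506 CPM over 10 genes, against 1535 to 2045 CPM over the 10 macrophage genes.

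Transcripts of the 10 macrophage genes were present in every library, with 438 to 12394 reads a gene. Per kilobase of exon, the scale on which genes can be set side by side, Lyz2 was the most abundant in WT at 209 ± 26.6 CPM per kb (mean ± SD, n = 3), followed by Cd5l at 104 ± 17.2 and Vcam1 at 53.5 ± 7.64. Then came Cd68 at 43.6 ± 3.73 CPM per kb, Axl at 36.6 ± 1.26, Csf1r at 24.0 ± 4.24, Spic at 19.5 ± 4.54 and Mrc1 at 18.8 ± 0.442. Mertk at 11.3 ± 0.840 CPM per kb and Cd163 at 7.58 ± 2.02 were the lowest. The order was the same in KO, from Lyz2 at 279.8 ± 95.2 CPM per kb to Cd163 at 5.34 ± 0.823. In WT the mean of Spic lay within its own SD of both its neighbours, Csf1r and Mrc1, so its place between them is not resolved.

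None of the 10 genes was called between KO and WT. An adjusted p under 0.05 over all 13721 genes tested (edgeR's quasi-likelihood test with Benjamini-Hochberg adjustment) was reached by 0 of 10, where 0.0219% of all genes tested reached it; DESeq2 and limma-voom also called 0 of 10. At an unadjusted p under 0.05 there were 0 of 10 higher (6.25% of all genes) and 1 of 10 lower, Cd163 (5.98% of all genes). On library totals, without TMM scaling, these counts were 5 higher and 0 lower of the 10, and 2151 higher and 351 lower of all 13721 genes. The fitted log2 change was above 0 for 9 of 10, all but Cd163, where 52.9% of all genes tested were above 0. The median log2 change was 0.24 for the 10 genes and 0.021 over all genes tested; without KO replicate 3 the median of the 10 was 0.10, with 7 of 10 above 0. No gene of the 10 had every KO library above every WT library (10.3% of all genes) or every KO library below (7.91%). In these bulk libraries fewer macrophages and less RNA per macrophage cannot be told apart, and the same holds for more of either.

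**Figure D1:**
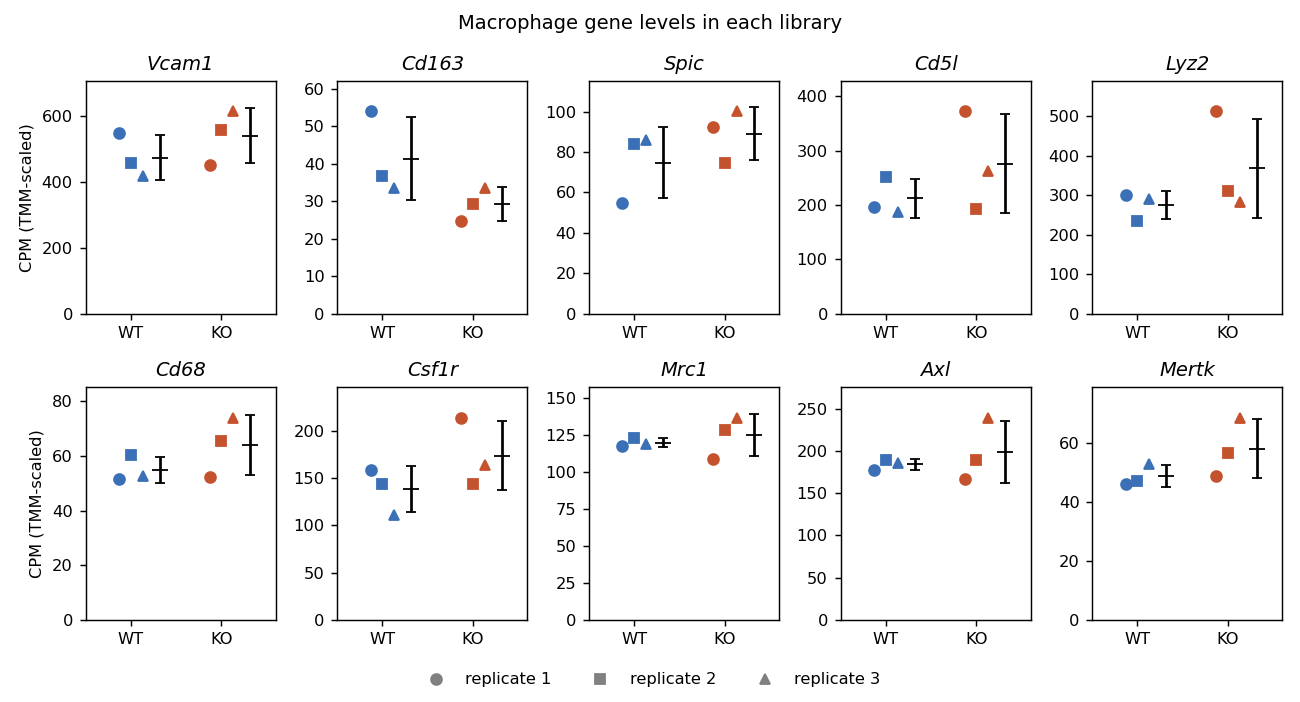
CPM of each of the 10 macrophage genes (vertical axis from 0, TMM-scaled library sizes) in the 3 WT and 3 KO libraries, with marker shapes for replicate numbers and bars for mean ± SD. The groups overlap in all 10 panels; Cd163 has its highest library in WT replicate 1 (54.0 CPM), and Lyz2 in KO replicate 1 (512 CPM).

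Spic, the transcription factor, lies on chromosome 10 from 88674772 to 88685015 (mm10, minus strand). It stood at 54.7, 84.0 and 85.7 CPM in WT replicates 1, 2 and 3 and at 92.6, 74.6 and 100.1 CPM in KO replicates 1, 2 and 3. WT replicate 1 was the lowest, KO replicate 2 lay below the other WT libraries, and the groups overlapped. The group means were 74.8 ± 17.4 and 89.1 ± 13.1 CPM, a log2 change of 0.25 (SE 0.179, 95% interval -0.15 to 0.65, adjusted p = 0.625 by edgeR). Without WT replicate 1 the log2 change was 0.073.

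The growth factor receptor Csf1r, on chromosome 18 from 61100598 to 61132149, stood at 159, 144 and 111 CPM in the WT libraries and at 214, 144 and 164 CPM in the KO libraries. The highest value was in KO replicate 1 and the lowest in WT replicate 3, and the other 4 lay between 144 and 164 CPM. The log2 change was 0.33 (SE 0.170, 95% interval -0.048 to 0.71, adjusted p = 0.475 by edgeR) and 0.13 without KO replicate 1. Of its 5774 exon bases, 873 are shared with Hmgxb3 on the opposite strand, and the library kit does not mark strand, so reads of that stretch cannot be told apart.

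Axl and Mertk are the TAM receptor kinases. Axl, on chromosome 7 from 25757273 to 25788705, stood at 177, 189 and 186 CPM in WT and at 167, 189 and 239.6 CPM in KO. Mertk, on chromosome 2 from 128698956 to 128802894, stood at 46.3, 47.4 and 53.1 CPM in WT and at 48.8, 56.8 and 68.8 CPM in KO. For both genes KO replicate 1 was the lowest of the KO libraries and KO replicate 3 the highest of all 6. Reads of Axl per read of Mertk were 3.83, 4 and 3.50 in WT and 3.42, 3.33 and 3.48 in KO. Every KO library lay below every WT library in this ratio. The pair was chosen after the values were seen, and no test was made. Ratios of Cd5l, Lyz2 and Spic to Vcam1, of Csf1r to Cd68 and of Lyz1 to Lyz2 were formed too. In each of those the groups overlapped. The log2 change was 0.11 for Axl (SE 0.131, 95% interval -0.18 to 0.40, adjusted p = 0.796 by edgeR) and 0.25 for Mertk (SE 0.138, 95% interval -0.054 to 0.55, adjusted p = 0.507 by edgeR). Without KO replicate 3 the log2 change was -0.053 for Axl and 0.105 for Mertk.

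Vcam1, the adhesion molecule of the island, lies on chromosome 3 from 116109949 to 116129688. It stood at 549, 457 and 417 CPM in WT and at 452, 557 and 615 CPM in KO. WT replicate 1 was close to KO replicate 2, and KO replicate 1 lay inside the WT range. The means were 474 ± 67.8 and 541 ± 82.4 CPM, a log2 change of 0.19 (SE 0.141, 95% interval -0.12 to 0.50, adjusted p = 0.648 by edgeR), and 0.080 without KO replicate 3. Vcam1 is also made by endothelial and stromal cells, whose 10 markers summed to 414 to 485 CPM in WT and to 355, 449.8 and 593 CPM in KO replicates 2, 1 and 3; their part in the Vcam1 values was not tested.

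Cd163 was the only one of the 10 with a lower fitted level in KO. This hemoglobin scavenger receptor, on chromosome 6 from 124304656 to 124330527, stood at 54.0, 36.8 and 33.4 CPM in WT and at 24.6, 29.2 and 33.6 CPM in KO. KO replicate 3 and WT replicate 3 were level, so the groups overlapped by that pair, and WT replicate 1 was far above the rest. The log2 change was -0.51 (SE 0.191, 95% interval -0.93 to -0.083), a fold of 0.704, with an unadjusted p of 0.0236 and an adjusted p of 0.330 by edgeR. Over the other settings tried the adjusted p ran from 0.109 with DESeq2 to 0.792 for KO replicate 3 alone against WT. Without WT replicate 1 the log2 change was -0.26. WT replicate 1 also held the highest summed level of 8 B cell markers, 217 CPM, against 28.4 to 88.3 CPM elsewhere, and the part of that difference in the Cd163 value was not tested.

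Mrc1, the other endocytic receptor, varied least of the 10, with a highest library 1.26 times its lowest. On chromosome 2 from 14229392 to 14332057, it stood at 118, 123 and 119 CPM in WT and at 109, 129 and 137 CPM in KO. The log2 change was 0.058 (SE 0.109, 95% interval -0.18 to 0.30, adjusted p = 0.879 by edgeR), and -0.021 without KO replicate 3. Cd163 reads per Mrc1 read, a ratio that no scaling of the library touches, were 0.458, 0.299 and 0.282 in WT and 0.226, 0.228 and 0.246 in KO. This ratio was lower in every KO library than in every WT library. The pair was chosen after the values were seen, and no test was made. The ratios that overlapped are named above with Axl.

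The secreted and lysosomal members split. Cd5l, on chromosome 3 from 87357881 to 87371073, stood at 197, 252 and 187 CPM in WT and at 372, 192 and 263 CPM in KO. Lyz2, on chromosome 10 from 117277331 to 117282321, stood at 300.4, 235 and 290.4 CPM in WT and at 512, 311 and 282 CPM in KO. Both were highest in KO replicate 1, and in each at least 1 KO library lay within the WT range. The log2 change was 0.38 for Cd5l (SE 0.235, 95% interval -0.16 to 0.92, adjusted p = 0.578 by edgeR) and 0.42 for Lyz2 (SE 0.222, 95% interval -0.090 to 0.93, adjusted p = 0.500 by edgeR). Without KO replicate 1 both shrank, to 0.080 for Cd5l and 0.083 for Lyz2. Cd68, on chromosome 11 from 69664213 to 69666153, did not have this peak: it stood at 51.7, 60.2 and 52.5 CPM in WT and at 52.3, 65.5 and 74.1 CPM in KO. Its log2 change was 0.22 (SE 0.139, 95% interval -0.083 to 0.53, adjusted p = 0.568 by edgeR), and 0.095 without KO replicate 3.

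Lyz2 has a near-identical neighbour, Lyz1, so reads may have been divided between them. Lyz1 had 181 reads in WT replicate 1 and 8 to 29 in the other libraries, against 3752 to 9101 for Lyz2. Lyz2 is also a gene of neutrophils and monocytes. The 15 neutrophil markers summed to 402, 837 and 1139 CPM in WT and 614, 770.4 and 563 CPM in KO, and the 8 monocyte markers to 95.7 to 142 and 87.2 to 130.3 CPM. In KO replicate 1, where Lyz2 peaked, the monocyte markers summed to 112 CPM, within their WT range. Single markers differed there. Fcgr4 was at its highest (28.6 CPM, against 12.0 to 20.4 CPM elsewhere), as was Ms4a6c (5.79 CPM). Cx3cr1 (2.42 CPM) and F13a1 (6.24 CPM) were at their lowest in that library, and the remaining monocyte markers were neither. The part of these cells in the Lyz2 values was not tested.

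**Figure D2:**
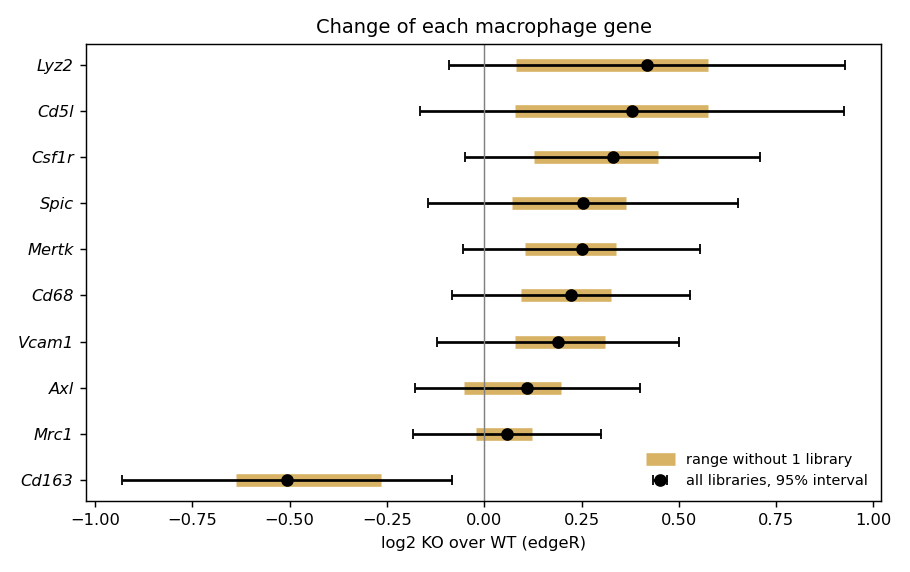
Fitted log2 change of KO over WT for each gene (points), with the 95% interval from edgeR (black bars) and the range of the change when any 1 library is left out (brown bars). The interval of Cd163, -0.93 to -0.083, lies below 0, and those of the other 9 genes cross 0.

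The 10 genes did not vary as a block from library to library. KO replicate 3 held the highest level of 6 of them (Vcam1, Spic, Cd68, Mrc1, Axl and Mertk) and KO replicate 1 that of 3 (Cd5l, Lyz2 and Csf1r). KO replicate 1 was also the lowest of all 6 libraries for 3 genes (Cd163, Mrc1 and Axl). In that library the log2 level stood 0.71 above the gene's mean for Lyz2, 0.65 above for Cd5l and 0.49 above for Csf1r, but -0.15 for Vcam1, -0.17 for Cd68 and -0.19 for Axl. KO replicate 2 was neither highest nor lowest for any of the 10. Marco, a scavenger receptor of marginal zone macrophages, stood at 391 CPM in KO replicate 1 and at 10.4 to 62.3 CPM in the other 5 libraries; it was singled out after its values were seen, and what it has to do with the peak of Cd5l, Lyz2 and Csf1r was not tested.

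**Figure D3:**
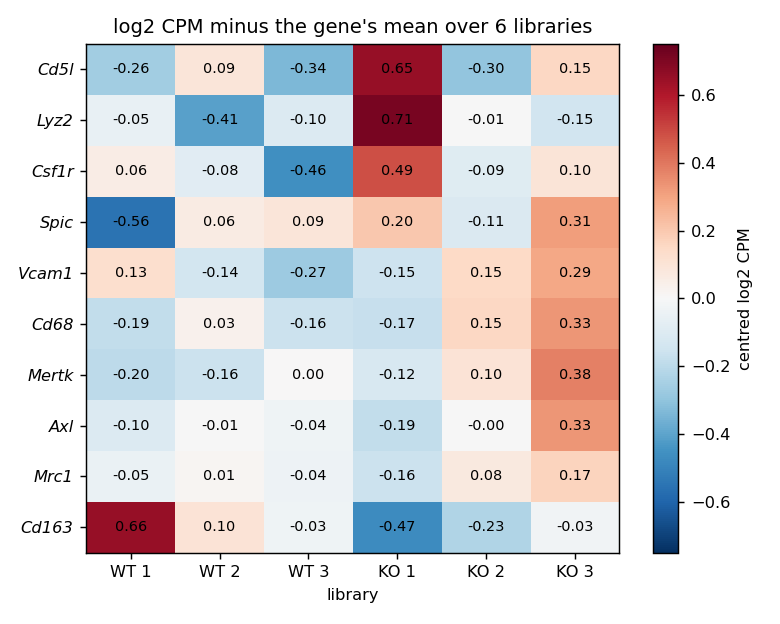
Log2 CPM of each gene (rows) in each library (columns) minus the gene's mean over the 6 libraries, with the value printed in each cell and colour running from blue (below the mean) to red (above). Cd5l, Lyz2 and Csf1r peak in KO replicate 1, at 0.65, 0.71 and 0.49, whereas Vcam1, Cd68, Mertk and Axl peak in KO replicate 3, at 0.29 to 0.38.

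For KO replicate 3 alone against WT, 9 of 10 genes were above 0, as were 7318 of all 13721, with a median log2 change of 0.34 against 0.031 over all genes tested, and 0 of 10 were called (adjusted p by edgeR from 0.576 to 0.988). Lyz2 was at 0.034 there and Cd163 at -0.30. This comparison shares the WT libraries and KO replicate 3 with the one over all 6 libraries. In the comparison of KO replicate 3 alone, that library adds nothing to the spread, which comes from WT and from KO replicates 1 and 2.

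Other genes of splenic macrophages lay on both sides of 0. Of 28 listed, 27 were tested (all but Trf), 20 had a log2 change above 0 and 0 were called by edgeR; 6 were higher and 3 lower at an unadjusted p under 0.05, where 6.25% and 5.98% of all genes tested were. DESeq2 called 3 (Lgals3 higher, Hmox1 and Slc40a1 lower), where it called 352 of 21680 genes, and limma-voom called 0. With no filter on low counts edgeR called 1 (Lgals3 higher, adjusted p = 0.0216), where it called 228 of 21680 genes. The median log2 change was 0.19, and 0.054 without KO replicate 3. The heme oxygenase Hmox1 stood at 787, 1117 and 965 CPM in WT and 668, 420.4 and 707 CPM in KO (log2 -0.68, SE 0.203, adjusted p = 0.241 by edgeR). The iron exporter Slc40a1 averaged 515 ± 144 CPM in WT against 318 ± 72.4 in KO (log2 -0.69, adjusted p = 0.327 by edgeR), and the heme transporter Slc48a1 averaged 583 ± 28.4 CPM against 490.3 ± 17.6 (log2 -0.25, adjusted p = 0.351 by edgeR). Erythroid cells make these 3 transcripts too. The 6 with a higher level were led by the galectin Lgals3, at 32.5, 46.4 and 44.8 CPM in WT and 53.3, 58.2 and 72.9 CPM in KO (log2 0.58, SE 0.164, adjusted p = 0.202 by edgeR). Emr1, the F4/80 antigen now named Adgre1, stood at 54.9, 55.3 and 38.8 CPM in WT and 73.3, 58.6 and 64.3 CPM in KO (log2 0.40, adjusted p = 0.331 by edgeR). They also included Timd4, a receptor for dying cells (log2 0.57), the iron and metal transporter Slc11a1 (log2 0.41, unadjusted p = 0.0206) and Treml4, which the naming rule did not take (log2 0.33).

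Among 16 partners of the 10 genes, 15 were tested; Icam4, an erythroblast adhesion molecule, was listed at 0 reads in all libraries. edgeR and limma-voom called 0 of them. DESeq2 called 1, Nr1h3, where it called 352 of 21680 genes. With no filter on low counts edgeR also called 1, Nr1h3, where it called 228 of 21680 genes. Of the 15 tested, 7 were above 0 and 8 below, with a median log2 change of -0.074. At an unadjusted p under 0.05 there was 1 higher and 1 lower. Nr1h3, the liver X receptor that drives Cd5l and Mertk in macrophages, stood at 20.9, 24.4 and 22.4 CPM in WT and 41.2, 27.7 and 34.8 CPM in KO. Every KO library lay above every WT library, and the log2 change was 0.61 (SE 0.163, unadjusted p = 0.00302, adjusted p = 0.176 by edgeR); with DESeq2 the adjusted p was 0.0334, and by edgeR with no filter on low counts it was 0.0329. KO replicate 1 was its highest library, as it was for Cd5l but not for Mertk. Spi1, which encodes the myeloid factor PU.1, averaged 23.8 ± 2.10 CPM in WT against 28.3 ± 4.19 in KO (log2 0.25, adjusted p = 0.549 by edgeR), and Bach1, the repressor of Spic, averaged 83.6 ± 2.96 CPM against 73.8 ± 11.6 (log2 -0.18, adjusted p = 0.613 by edgeR). Itga4, the α4 chain that binds Vcam1 from the erythroblast side, averaged 383 ± 48.7 CPM in WT against 331 ± 88.9 in KO (log2 -0.21, adjusted p = 0.699 by edgeR). Itgb7, a partner chain of Itga4 in lymphocytes, had a log2 change of -0.42 (adjusted p = 0.372 by edgeR). Maea, the macrophage erythroblast attacher, had one of 0.18 (adjusted p = 0.521 by edgeR).

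Markers of other cells were set beside the 10 genes. The summed level of the 10 was 1707, 1629 and 1535 CPM in WT and 2045, 1748 and 1977 CPM in KO, with 9 of 10 members above 0. Dendritic cell markers summed to 64.4 to 75.7 CPM in WT and 70.1 to 76.2 CPM in KO (4 of 8 above 0), with Zbtb46 and Itgax the most abundant. T and NK cell markers summed to 34.9 to 47.2 and 34.2 to 52.2 CPM (5 of 10 above 0), with Lck and Cd4 the most abundant. B cell markers, led by Cd79a and Cd79b, summed to 42.7 to 217 and 28.4 to 88.3 CPM (0 of 8 above 0, median log2 change -1.20); without WT replicate 1, 5 of 8 were above 0 and the median was 0.18. Platelet and megakaryocyte markers, led by Ppbp and Itga2b, summed to 206 to 419 and 213 to 246 CPM (0 of 9 above 0). Endothelial and stromal markers, led by Plvap and Stab2, had 6 of 10 above 0; neutrophil markers, led by S100a9 and Ngp, had 3 of 15, with a median of -0.30, but 10 of 15 and a median of 0.080 without WT replicate 3. Monocyte markers, led by Chil3 and Fcgr4, had 2 of 8 above 0. All 10 erythroid markers, led by Slc4a1 and Alas2, had a log2 change below 0 with a median of -0.64. Of these 10, 9 had every KO library below every WT library, where 7.91% of all genes tested did. With the filter on low counts and all 6 libraries, edgeR and limma-voom called 0 of these markers. DESeq2, run without that filter, called 352 of 21680 genes. Of these markers it called 8 erythroid ones and the platelet gene Gp9, all lower in KO. With no filter on low counts edgeR called 228 of 21680 genes. Among them were 5 erythroid markers (Alas2, Tfrc, Epor, Epb4.2 and Klf1) and Gp9, all 6 lower in KO. Their adjusted p by edgeR ran from 2.47e-05 for Alas2 to 0.0416 for Klf1. Without KO replicate 3 edgeR called 14 of 14089 genes. Of these markers it called 1, Alas2 (log2 -0.97, adjusted p = 0.0358), also lower.

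**Figure D4:**
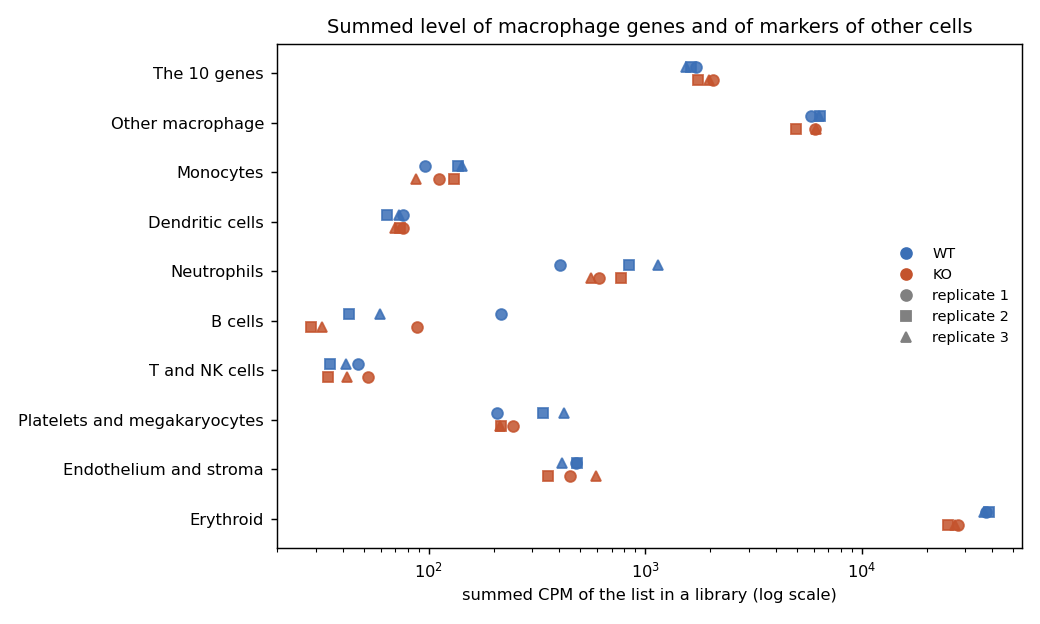
Summed CPM of the 10 macrophage genes, of other macrophage genes and of markers of other cells in each library (horizontal log axis), WT in blue and KO in orange with marker shapes for replicate numbers. The 10 genes lie at 1535 to 1707 CPM in WT and 1748 to 2045 CPM in KO, and the erythroid markers lie at 36871 to 38506 and 24939 to 27931 CPM.

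Set against erythroid reads of the same library, which removes the scaling of the library, the 10 genes were higher in KO. Per 1000 reads of the 10 erythroid markers, the 10 genes together had 45.7, 42.3 and 41.6 reads in WT and 73.2, 70.1 and 73.2 in KO (43.2 ± 2.17 and 72.2 ± 1.81, mean ± SD, n = 3). The groups did not overlap, and the spread within each was small beside the difference. Each of the 10 but Cd163 had every KO library above every WT library on this scale, 9 of 10, where 56.0% of all genes tested did; the erythroid markers that form the denominator were themselves lower in KO. Vcam1 had 14.7, 11.9 and 11.3 reads per 1000 erythroid reads in WT and 16.2, 22.3 and 22.8 in KO, and Cd163 had 1.44, 0.954 and 0.906 in WT and 0.882, 1.17 and 1.25 in KO. This scale was chosen after the values were seen. Dendritic cell markers on the same scale had 1.89 ± 0.192 reads in WT and 2.75 ± 0.171 in KO, and platelet and megakaryocyte markers 8.54 ± 2.93 and 8.42 ± 0.478. The other macrophage genes (165 ± 8.75 and 216 ± 14.6), the partners (30.6 ± 1.02 and 42.4 ± 6.16), the T and NK cell markers (0.906 to 1.26 and 1.37 to 1.87) and the endothelial and stromal markers (12.2 ± 0.845 and 17.4 ± 4.03) also had every KO library above every WT library, as did the dendritic cell markers. The gap on this scale is therefore not particular to the 10 genes.

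Genes outside these lists whose levels ran closest to the mean of the 10 over the 6 libraries were Bckdk, Rrbp1, Hn1l, Pitpna, Pdcd2l, Emr4, Rhog and Mcfd2. Their root mean square distance from that mean was 0.023 to 0.032 on the log2 scale over the 6 libraries, where the median over 10799 genes was 0.222. The 10 genes themselves lay farther from their own mean, at 0.117 (Mrc1) to 0.394 (Cd163). Their mean moved little, from -0.14 in WT replicate 3 to 0.19 in KO replicate 3, so a gene that hardly varies lies near it.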

How the data were processed

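RNA-seq was made from Ter119-positive spleen cells of 3 WT and 3 KO libraries. Per the labels' protocols, libraries were made with Illumina's TruSeq RNA kit, which does not mark strand. What the authors deposited is raw read counts, 1 line a gene symbol. Per the submitters' processing notes, mm10, STAR 2.5, HTSeq and DESeq2 were used, with no role stated; annotation and counting mode were not given in the sources used here. Of its 35275 lines, 27 with names turned into dates (0.340% to 0.383% of a library's reads) were left out, and 122 lines sharing 52 symbols were summed. Positions and exon lengths came from GENCODE M21 (the mm10 assembly). The closest pair of libraries differed by a chi-square of 22.1 per gene, so none was within sampling noise.

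Genes were tested with edgeR 4.0.16 (R 4.3.3): filterByExpr, TMM scaling, robust quasi-likelihood F test, prior count 0.125, Benjamini-Hochberg adjustment over 13721 genes, called under 0.05. SE is the log2 change over the square root of F. The fits were checked on simulated data. DESeq2 1.42.0, limma-voom 3.58.1, other scalings and filters, each library left out, KO replicate 3 alone and the replicate number as a block were alternatives. The members, lists and alternatives were chosen with earlier results of these data known. Besides the 10 members, the naming rule took the 8 other macrophage genes and 6 partners with the smallest p, the 2 most abundant genes of each other list, and the 8 nearest in pattern. One gene that the rule takes is not reported here.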

Additional observations from a re-analysis of the deposited data

How the results depend on the processing

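The count of the 10 genes called was 0 under all 16 alternatives. DESeq2, like edgeR with no filter on low counts, was run on 21680 genes and not on 13721. The count over all genes, 3 as reported, was 352 with DESeq2, 228 with no filter on low counts, 33 by library totals, 10 with DESeq2 size factors, 9 with 1 CPM in at least 3 libraries, 8 with upper-quartile scaling, 6 for KO replicate 3 alone, 0 with limma-voom (819 higher and 862 lower at an unadjusted p under 0.05) and, without single libraries, 0 (edgeR without WT replicate 2, with 655 higher and 683 lower at that level) to 14 (without KO replicate 3). The median log2 change of the 10 genes, 0.24 as reported, was 0.37 by library totals, 0.34 for KO replicate 3 alone, and 0.10 (without KO replicate 3) to 0.26 without single libraries. By library totals the median of all genes moved from 0.021 to 0.15. Without single libraries the log2 change ran from -0.021 to 0.12 for Mrc1 and from -0.053 to 0.20 for Axl, both below 0 only without KO replicate 3. The other 8 genes kept their sign under all 16 alternatives. With the replicate number as a block there were 9 calls, 0 of them among the 10 genes. At an unadjusted p under 0.05 in that fit, 2 of the 10 were higher and 0 lower. Over all 13721 genes, 907 were higher and 882 lower at that level. Same-numbered libraries deviated together with correlations of 0.098, 0.044 and 0.031, and 5 of 6 libraries correlated best with their own number. The labels do not say that the number marks a litter or batch, so the main fit did not pair the libraries by it. The causes were not tested. With 438 reads or more per gene, the spread between 3 libraries and not depth sets the intervals.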
